A study of Caenorhabditis elegans with 6 samples.

Results

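The cytosolic ribosomal protein genes of Caenorhabditis elegans were taken by name, as every gene of the deposited table whose symbol begins with rpl, rps or rla followed by a number. They were 83 of the 20473 genes in the table. Of these, 81 are annotated genes. By symbol alone, 47 are rpl genes, named for proteins of the large subunit, 31 are rps genes, named for the small subunit, and 3 are rla genes, named for the stalk. The other 2 are loci assembled from reads that carry the symbols rpl-2 and rps-13. The study sequenced RNA of whole N2 worms, the wild-type laboratory strain, exposed to diquat dibromide monohydrate at 100 µg/L or kept without it (0 µg/L), in both cases for 72 h at 20 °C. Each group had 3 libraries of poly(A)-selected RNA, numbered 1 to 3. Diquat is a bipyridyl herbicide that cycles between redox states and passes electrons to oxygen. The sources used here do not give the worms' starting stage, nor whether the libraries of a group came from separate cultures. The p-values therefore measure only the spread between these libraries, which may be technical.

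The cytosolic ribosome is built from ribosomal RNA and one copy of most ribosomal proteins, so that these proteins are made in matched amounts by a large set of mostly single-copy genes. The small subunit holds the messenger RNA and the large subunit joins the amino acids. The stalk, made of P0, P1 and P2, recruits the elongation factors. In growing cells and in the worm's germline and intestine these messages are among the most abundant, and in many organisms their use is set by TOR signalling, largely at the level of translation, which RNA sequencing does not read.

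Library totals were 23390547 to 24593469 counts, and TMM scaling factors, which adjust for composition, were 0.919 to 1.09. In a fit over 13252 genes, edgeR's quasi-likelihood test with Benjamini-Hochberg adjustment called 121 genes lower and 0 genes higher with diquat at an adjusted p under 0.05, which is 0.913% of those tested. Of the marker lists for cell types of the worm, the sperm list stood out, with 10 of its 13 tested genes called lower. Its summed level was 32.5, 38.7 and 24.8 CPM in the diquat libraries, against 74.4, 87.8 and 79.4 CPM in the control libraries, and none of its genes was at 0 in every library. No gene was called by this test in the lists for germline (16 tested), intestine (7), body muscle (7), hypodermis and cuticle (8), neurons (8) and pharynx (4). When libraries of the same number were compared, with the number as a block in the fit, calls at the same threshold were 8.51% of all tested genes. They included 5 of the 8 hypodermis and cuticle genes, 4 of the 7 body muscle genes, 2 of the 7 intestine genes and 11 of the 13 sperm genes, all lower with diquat, 1 neuron gene and 1 pharynx gene, both higher, and 0 germline genes. The summed level of the body muscle list was 4086, 4800 and 3373 CPM in the diquat libraries, against 4963, 5059 and 4341 CPM in the control libraries. That of the hypodermis and cuticle list was 6838, 7666 and 5831 CPM in the diquat libraries, against 8011, 8853 and 7112 CPM in the control libraries. Both sums were lower with diquat in all 3 number pairs. So was that of the neuron list, although its 1 called gene was higher. It was 620, 626 and 516 CPM in the diquat libraries, against 670, 684 and 602 CPM in the control libraries. The germline, intestine and pharynx sums were lower in some pairs and higher in others. The median log2 fold change was -0.07 for both the neuron list (4 of 8 genes under 0) and the pharynx list (3 of 4). The part of these lists in the results on ribosomal protein genes was not tested. CPM here is the authors' count scaled to a common library size, the library total times its TMM factor. In whole worms, fewer cells of a type and less RNA per cell cannot be told apart.

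Ribosomal protein messages were a large part of the RNA in both groups. They took 10.40%, 10.22% and 9.81% of all counts in the diquat libraries, against 11.01%, 10.32% and 9.98% in the control libraries. The mean share was 10.1% ± 0.304 with diquat and 10.4% ± 0.526 in the control (SD, n = 3 each), and the groups overlapped. The log2 ratio of the shares was -0.04, smaller than the within-group SD of the log2 share, 0.060, although the share was lower with diquat in all 3 number pairs. Large subunit genes made up 5.60% ± 0.179 of counts with diquat and 5.78% ± 0.299 in the control. Small subunit genes made up 4.03% ± 0.133 with diquat and 4.12% ± 0.221 in the control, and stalk genes 0.519% ± 0.013 with diquat and 0.532% ± 0.012 in the control. Vitellogenin messages, which encode yolk proteins, took 13.1% ± 1.51 of counts with diquat and 12.6% ± 1.74 in the control, and with them out of the total the ribosomal protein share was 11.7% ± 0.368 with diquat and 11.9% ± 0.448 in the control, again lower with diquat in all 3 pairs.

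Per length, most of the genes were at a high level, and the means of the tested annotated genes ran from 80.6 to 4312 FPKM. FPKM, the authors' fragment count per kilobase of transcript scaled to the library total, had a median over the 80 tested annotated genes of 2011, and the 10th and 90th percentiles, 498 and 3149 FPKM, were 6.32-fold apart. Of these genes, 63 had a mean over 1000 FPKM and 8 were under 500 FPKM. They filled 9 of the 20, 32 of the 50 and 55 of the 100 highest places among all genes by mean FPKM. The medians of the large subunit, the small subunit and the stalk were 2064, 2001 and 2229 FPKM.

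**Figure D1:**
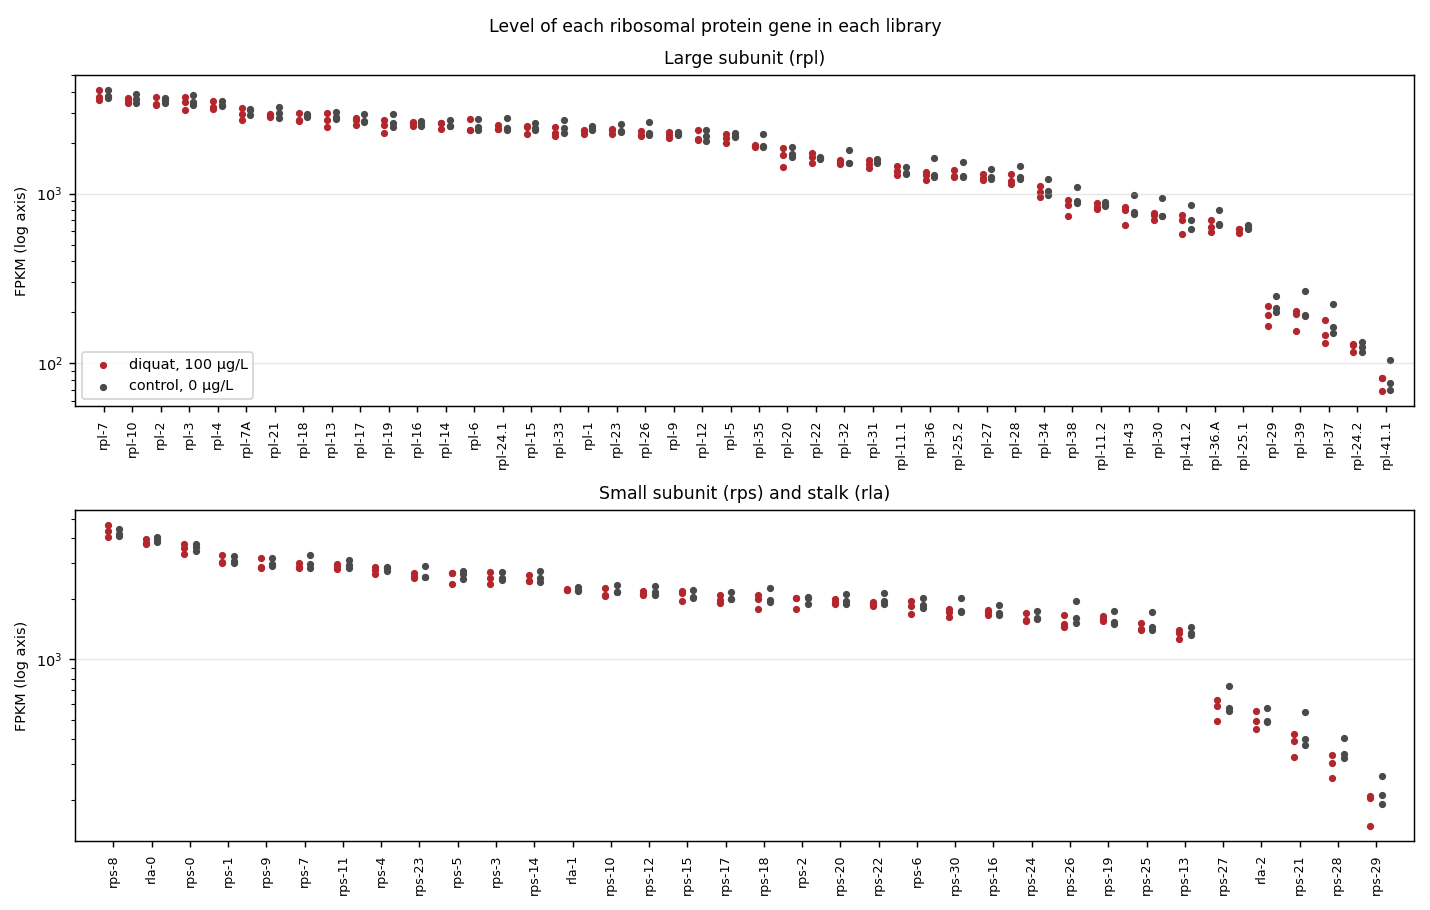
Level in FPKM (log axis) of each tested annotated ribosomal protein gene, ordered by its mean, with 1 point per library: diquat at 100 µg/L left in red, control at 0 µg/L right in dark grey (3 libraries each). The points of the groups overlap for every gene, most genes lie over 1000 FPKM, and the lowest is rpl-41.1 with a mean of 80.6 FPKM.

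The highest mean level belonged to rps-8, a small subunit protein gene on chromosome IV (7312958 to 7313860, minus strand, WBcel235). It had 4374 ± 298 FPKM with diquat and 4250 ± 176 FPKM in the control (SD, n = 3 each). The next were rla-0 with 3831 ± 133 FPKM with diquat and 3942 ± 116 FPKM in the control, and rpl-7 with 3791 ± 262 FPKM with diquat and 3853 ± 227 FPKM in the control. They were followed by rpl-10, whose protein joins the large subunit late in assembly in yeast, at 3551 ± 125 FPKM with diquat and 3638 ± 219 FPKM in the control. rps-0 had 3562 ± 190 FPKM with diquat and 3612 ± 155 FPKM in the control. rpl-2, whose protein lies by the peptidyl transferase centre, had 3480 ± 211 FPKM with diquat and 3558 ± 124 FPKM in the control. rps-8 lay above rla-0 by more than the SD of either, and each later neighbour in this order differed from the one before it by less than the larger SD of the pair. The order is a description.

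The low end of the order was held by the shortest transcripts, the second copies of some genes and 1 gene with almost no counts. Exon length and mean FPKM went together over the 80 tested annotated genes, with a Spearman rho of 0.743, given as a description because all points come from the same 6 libraries. The genes under 500 FPKM with transcripts of at most 310 nt were rpl-29, rpl-37, rpl-39, rps-21, rps-28 and rps-29. rpl-37, at III:3528642-3528917 on the plus strand, had 153 ± 25.4 FPKM with diquat and 180 ± 39.1 FPKM in the control. rpl-42 is the 1 gene that did not reach the expression filter, with 0 counts in each diquat library and 2, 4 and 2 counts in control libraries 1, 2 and 3. Both groups are at or near the floor of 3 counts, so no fold is given, and rpl-42 is also the only member to which the deposited annotation gives no ortholog in KEGG.

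The question that the design addresses is whether exposure to diquat changed these messages. No ribosomal protein gene was called higher or lower with diquat. The counts were 0 of 82 tested members by edgeR, with adjusted p-values between 0.751 and 1.00, where 0.913% of all tested genes were called. DESeq2 called 0 members, with a lowest adjusted p of 0.953, beside 1.04% of all genes, and limma-voom called 0 beside 0.890%. In the authors' deposited table, 0 members passed an FDR of 0.05 beside 0.762% of all genes, and the lowest FDR of a member was 0.998. At an unadjusted p under 0.05, edgeR had 1 of the 82 members, rps-28, where 6.22% of all tested genes passed. No tested member had all diquat libraries below all control libraries, which held for 6.68% of all tested genes. None had all diquat libraries above all control libraries, which held for 4.07%.

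The fold changes were small, and nearly all had the same sign. Of the 80 tested annotated genes, 79 had a log2 fold change under 0, and 67 lay within 0.15 of 0. The median over the 82 tested members was a log2 fold change of -0.08, against 0.01 over all tested genes. By class, the median was -0.09 for the 46 large subunit genes, from -0.27 to -0.02, and -0.08 for the 31 small subunit genes, from -0.29 to 0.00. For the 3 stalk genes it was -0.08. The median standard error of a gene, 0.13 on the log2 scale, was larger than the median change. The approximate 95% intervals of this fit, taken gene by gene over these libraries, lay within 2-fold in either direction for all 80 genes. Those of 77 lay within 1.5-fold, the exceptions being rpl-37, rpl-39 and rps-29. They make no allowance for the number of genes or for the length trend.

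The levels also differed between libraries within each group. On the log2 scale, the members' median deviation from their own mean was -0.03, 0.08 and -0.18 in diquat libraries 1, 2 and 3, against 0.12, 0.11 and -0.10 in control libraries 1, 2 and 3. The highest of the 6 libraries was control 1 for 40 genes, control 2 for 36, diquat 2 for 3 and diquat 1 for 1. The lowest was diquat 3 for 59 genes, diquat 1 for 16 and control 3 for 5. The difference between group means was larger than the within-group SD of the scaled log2 counts for 8 of the 80 genes, and that SD had a median of 0.148. Taken by number, 78 genes were lower in diquat 1 than in control 1, 61 were lower in diquat 2 than in control 2, and 68 were lower in diquat 3 than in control 3. In all 3 pairs, 53 were lower. The same counts over all tested genes are not given here, and ratios by number of other genes of like length and level follow below.

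Blocking on the replicate number, which compares same-numbered libraries, also gave 0 called members, beside 8.51% of all tested genes. The lowest adjusted p in this edgeR fit was 0.0683, for rps-26, and 16 members had an unadjusted p under 0.05, beside 22.5% of all tested genes. The median log2 fold change of the members with the block was -0.08.

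The 3 stalk genes were each measured with overlapping groups. rla-0, which encodes the stalk base P0, had 3832, 4416 and 3532 CPM in diquat libraries 1, 2 and 3, against 4067, 4574 and 3801 CPM in control libraries 1, 2 and 3, with a log2 fold change of -0.08 ± 0.14 (SE; edgeR adjusted p = 0.918). Every number pair was lower with diquat, by less than the distance between numbers 2 and 3 within either group. rla-1, which encodes the acidic stalk protein P1, had 979, 1069 and 925 CPM with diquat, against 1034, 1074 and 958 CPM in the control. Its log2 fold change was -0.04 ± 0.12 (SE; edgeR adjusted p = 0.950), and a gene on the opposite strand overlaps it. rla-2, which encodes the acidic stalk protein P2, had 200, 237 and 227 CPM with diquat, against 258, 238 and 214 CPM in the control. Its log2 fold change was -0.10 ± 0.12 (SE; edgeR adjusted p = 0.879), with number 3 higher with diquat. Per length, rla-1 with a mean of 2229 FPKM stood above rla-2 with 508 FPKM. P1 and P2 are known to enter the stalk as pairs.

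Among the annotated members the highest log2 fold change lay at 0, and the 2 assembled loci lay above it. rps-8 had 3171, 3024 and 2748 CPM with diquat, against 3064, 3159 and 2718 CPM in the control, a log2 fold change of 0.00 ± 0.13 (SE) with a 95% interval from -0.28 to 0.28. rpl-11.1 had -0.02 ± 0.12, rpl-22 had -0.03 ± 0.11 and rps-15 had -0.04 ± 0.12 on the same scale (SE). The assembled locus with the symbol rps-13 had 0.08 ± 0.13 (SE; edgeR adjusted p = 0.908), with 83.8, 95.9 and 71.8 CPM in the diquat libraries against 80.2, 86.3 and 71.2 CPM in the control libraries. It is a separate entry from the annotated rps-13, whose log2 fold change was -0.08 ± 0.12 (SE), and the sources used here do not say how reads were split between the entries. The other assembled locus, with the symbol rpl-2, had under 1 CPM in every library and a log2 fold change of 0.34 ± 0.49 (SE; edgeR adjusted p = 0.90).

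The members with the lowest log2 fold changes were among the shortest transcripts. rps-28, at IV:1659691-1659997 on the plus strand, encodes a small protein that sits by the exit of the messenger RNA channel, as known from yeast. It had 66.8, 86.4 and 80.9 CPM in diquat libraries 1, 2 and 3, against 108, 92.9 and 86.1 CPM in control libraries 1, 2 and 3. Diquat 1 was lowest and control 1 highest, and diquat 2 was just above control 3. The log2 fold change was -0.29 ± 0.13 (SE; unadjusted p = 0.0398 and adjusted p = 0.751 in edgeR's quasi-likelihood test across all genes).

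rps-29, which encodes a zinc-binding protein of the small subunit head, had 51.1, 77.1 and 67.4 CPM with diquat, against 93.1, 73.2 and 71.5 CPM in the control. Its log2 fold change was -0.28 ± 0.16 (SE; edgeR adjusted p = 0.819). rpl-39, whose protein lines the exit tunnel of the nascent chain in yeast, had 36.0, 49.6 and 43.6 CPM with diquat, against 63.2, 48.6 and 43.6 CPM in the control. In both genes the low diquat value and the high control value came from the libraries numbered 1, and number 2 was higher with diquat. The log2 fold changes of rpl-39, rpl-37 and rpl-38 were -0.27 ± 0.16, -0.26 ± 0.18 and -0.24 ± 0.13 (SE). rpl-38, whose mouse counterpart is known for its part in translating Hox messages, had 216, 275 and 249 CPM with diquat, against 328, 290 and 258 CPM in the control.

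Transcripts of the ribosomal protein genes have exon lengths of 236 to 1456 nt, the median being 522 nt, against a median of 1409 nt over the tested genes. They were therefore set beside the 218 other tested genes whose length (309 to 863 nt) and mean level (92.3 to 2697 CPM) both lie between the members' 10th and 90th percentiles. The set shares these ranges but was not matched gene by gene, and most of its genes had lower levels than most members. It holds ubl-1 and ubq-2, which each encode a ribosomal protein within a fusion, and other translation genes such as icd-2 and eef-1B.1. The median log2 fold change of these 218 genes was -0.09, and 195 of them were under 0. Their 10th and 90th percentiles were -0.23 and 0.00, against -0.17 and -0.04 for the ribosomal protein genes. The test without the block called 0 of the 218, and 10 had an unadjusted p under 0.05. With the block, 26 of the 218 were called lower and 1 higher, where 0 ribosomal protein genes were called in either direction. Over all tested genes that fit called 8.51% in either direction and 4.51% higher. Taken by number, the median log2 ratio of the 218 genes was -0.14, -0.10 and -0.02 for numbers 1, 2 and 3. That of the tested annotated ribosomal protein genes was -0.12, -0.03 and -0.07, so both sets were under 0 in every number. Across libraries, the median log2 deviation of the 218 genes was -0.03, 0.02 and -0.13 with diquat, against 0.12, 0.12 and -0.10 in the control, the same as that of the ribosomal protein genes to about the second decimal in the control libraries and in diquat 1, lower in diquat 2 and higher in diquat 3.

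Among the ribosomal protein genes, fold change and length went together, with a Spearman rho of 0.577 over the 80 tested annotated genes, all measured in the same 6 libraries. Split by length into 4 groups of 20, the median log2 fold change was -0.16 for the genes of 236 to 447 nt, and the other 3 groups had medians of -0.08 each. The 515 other tested genes of the same length as the shortest group had a median of -0.20 on this scale. For those as long as the second group (448 to 513 nt), the median was -0.09 over 316 genes, and for those as long as the third (530 to 697 nt) it was -0.07 over 960 genes. In the longest range (705 to 1456 nt) the 5025 other tested genes had a median of -0.02. The other genes with at least 100 CPM had medians of -0.11 (20 genes), -0.15 (20), -0.09 (80) and -0.07 (476) in the 4 ranges from short to long. The limit of 100 CPM was not applied to the members, and several of the shortest lie under it, among them rps-28, rps-29 and rpl-39, which have low fold changes. Beside these other genes the medians of all members were lower in the shortest range and higher in the second. These differences were not tested.

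When a smooth trend of count with length was taken out of each library before the fit, the members' median log2 fold change was 0.04. It was 0.01 for the 218 genes within the same ranges of length and level and 0.03 for all tested genes. With the trend removed, 63 of the 80 annotated genes were above 0 and 17 below it, so the common sign under 0 was not seen in this fit. The parts of length and level in that sign were not tested. The rho between length and fold change was -0.516 after the correction, which therefore did not leave the members level over length. The number of members called was 0 in this fit as well, beside 0.657% of all tested genes. When the blocked fit was made without the trend, it was also 0, with a lowest edgeR adjusted p of 0.0956, where 4.81% of all tested genes were called higher and 5.47% lower.

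**Figure D2:**
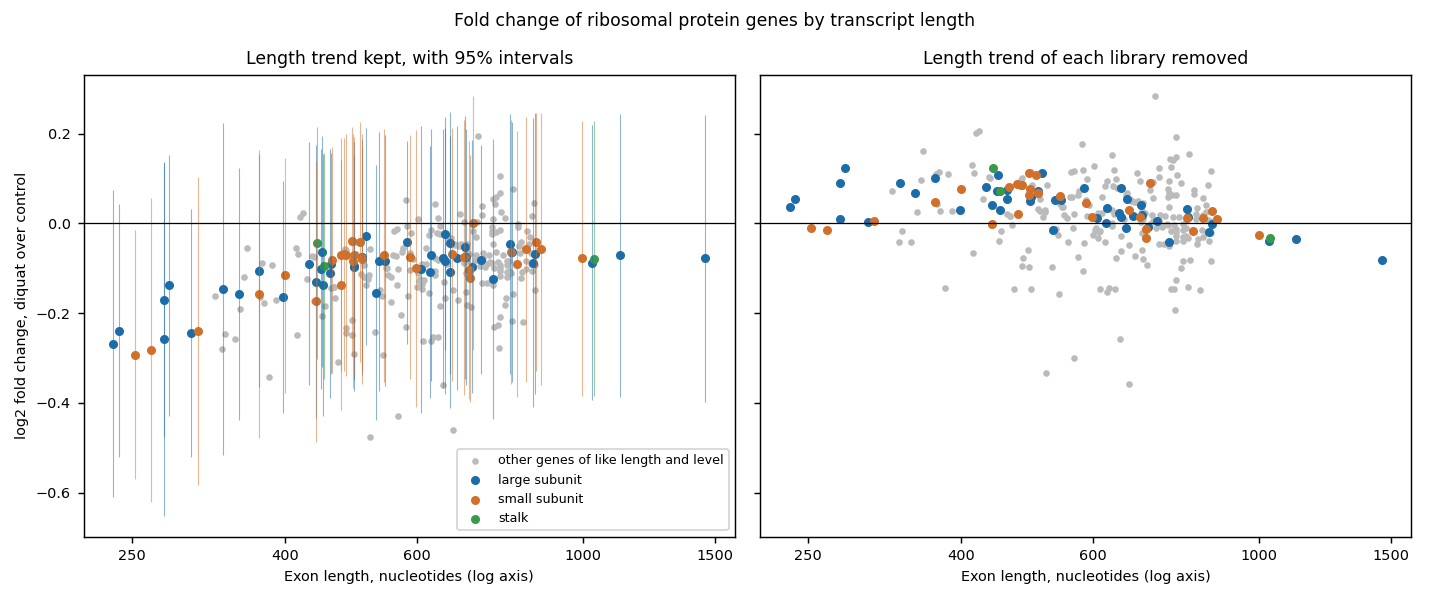
Log2 fold change, diquat over control, of the 80 tested annotated ribosomal protein genes (colours by class; bars are 95% intervals) and of the 218 other genes of like length and level (grey), against exon length in nucleotides (log axis), with the length trend kept (left panel) and removed in each library (right panel). In the left panel 79 of the 80 genes lie under 0 and the shortest lie lowest; in the right panel the median is 0.04.

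In the shortest genes the groups differed mainly in number 1. The 9 members of at most 310 nt, a limit chosen after their values were seen, are rpl-29, rpl-37, rpl-38, rpl-39, rpl-41.2, rpl-43, rps-21, rps-28 and rps-29. Their median log2 fold change was -0.24, from -0.29 to -0.14, against -0.08 over the other 71. The log2 ratio of diquat 1 to control 1 was -0.87 to -0.59 in these 9 genes, with a median of -0.69. The ratio of diquat 2 to control 2 was -0.10 to 0.16, with a median of 0.08, and that of diquat 3 to control 3 was -0.11 to 0.04, with a median of -0.05. In all 9 genes diquat 1 was the lowest of the 6 libraries and control 1 the highest.

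Other short genes also had their lowest median ratio in number 1. The 62 other tested genes from 236 to 310 nt had median log2 ratios of -0.65, -0.03 and -0.05 for numbers 1, 2 and 3, their log2 fold changes had a median of -0.26, and 1 of them was called lower. With the length trend removed, the 9 short members had a median log2 fold change of 0.01. The part that library preparation played in this was not tested.

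In a fit with the block and without the libraries numbered 2, edgeR called 7 members lower, where 2.48% of all tested genes were called lower. Only libraries 1 and 3 of each group were in this fit, so its p-values rest on few libraries. They were rpl-37 (log2 fold change -0.44), rpl-38 (-0.32), rpl-39 (-0.40), rpl-43 (-0.31), rps-21 (-0.43), rps-28 (-0.38) and rps-29 (-0.46), all of at most 306 nt, with adjusted p-values between 0.00708 and 0.0494. With number 2 in the fit the count was 0, and it was also 0 in the blocked fits without number 1 and without number 3. The 7 are among the 9 short members above, in which diquat 1 was the lowest library and control 1 the highest. The share given beside them is over all tested genes and not over other short genes.

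**Figure D3:**
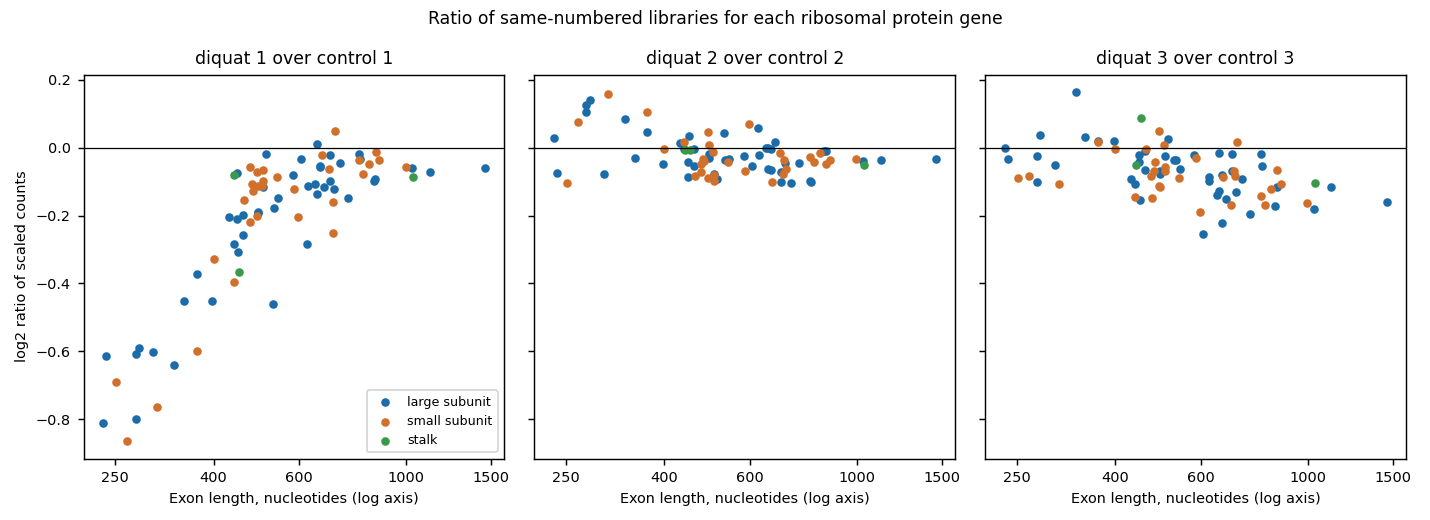
Log2 ratio of scaled counts, diquat over control, between libraries of the same number for each of the 80 tested annotated ribosomal protein genes, against exon length in nucleotides (log axis), with 1 panel per number. In the panel of number 1 the genes of at most 310 nt lie at -0.87 to -0.59 and the longer ones at -0.64 to 0.05, with a median of -0.11; in the panels of numbers 2 and 3 the short genes lie between -0.11 and 0.16.

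The 6 members with the smallest p in the blocked fit were rps-26, rps-28, rpl-19, rps-30, rpl-29 and rpl-33, all lower with diquat and none past the threshold. rps-26, a small subunit protein gene whose yeast counterpart lies by the messenger RNA exit channel, had 687, 829 and 616 CPM with diquat, against 904, 819 and 681 CPM in the control, so that number 2 was slightly higher with diquat. Its log2 fold change without the block was -0.17 ± 0.15 (SE; edgeR adjusted p = 0.821). rpl-19, whose protein forms a bridge between the subunits, had 1827, 1882 and 1428 CPM with diquat, against 2024, 1940 and 1634 CPM in the control. It was lower with diquat in all 3 pairs, and the spread between numbers was larger than the difference between groups (log2 fold change -0.12 ± 0.14, SE; edgeR adjusted p = 0.873 without the block and 0.0868 with it).

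Of the numbers with more than 1 annotated gene, 4 pairs are named as copies of 1 protein and share an ortholog group in the deposited annotation. Within each pair, the ratio of levels per length was compared between the groups. rpl-11.1 on chromosome V had 1.65, 1.60 and 1.64 times the FPKM of rpl-11.2 on chromosome X in the diquat libraries, against 1.59, 1.55 and 1.56 times in the control libraries. Every diquat ratio was above every control ratio, and so in all 3 number pairs, by a small amount (1.63 ± 0.030 with diquat and 1.57 ± 0.020 in the control, SD, n = 3 each). The two-sided exact permutation test, which here and for the other copies does not use the number pairs, gave p = 0.10, the smallest that 3 libraries against 3 can give, and 0.40 after Benjamini-Hochberg adjustment over the 4 pairs.

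rpl-24.1 had 19.7 ± 1.15 times the FPKM of rpl-24.2 with diquat and 20.3 ± 1.11 times in the control (exact permutation p = 0.50), and the ratio was lower with diquat in all 3 number pairs. The 2 genes differ widely in level, and the yeast counterpart of rpl-24.2 is an assembly factor of the large subunit. rpl-25.1 on chromosome X had 0.469 ± 0.037 times the FPKM of rpl-25.2 on chromosome I with diquat and 0.471 ± 0.039 times in the control (exact permutation p = 0.60). Both libraries numbered 1 had a ratio of 0.43 for this pair, and the other 4 libraries had 0.49. rpl-41.1 had 0.115 ± 0.005 times the FPKM of rpl-41.2 with diquat and 0.115 ± 0.013 times in the control (exact permutation p = 1.00). These 2 genes, which encode one of the smallest proteins of the ribosome, lie 699 nt apart on chromosome I and are given the same UniProt protein in the deposited annotation, so the split of reads between them is uncertain. rpl-36 and rpl-36.A share a number but encode different proteins, and their log2 fold changes were -0.16 ± 0.13 and -0.16 ± 0.12 (SE).

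The annotated genes lie on every chromosome, with 25 on I, 10 on II, 18 on III, 18 on IV, 8 on V and 2 on X. The 2 on X, rpl-11.2 and rpl-25.1, are both members of a pair of copies, and they had the lower level per length of their pair. Members lay within 5000 nt of each other in 5 cases. In 2 divergent pairs, rps-10 with rpl-24.1 (609 nt apart on I) and rps-14 with rpl-36 (662 nt apart on III), the log2 fold changes were -0.08 and -0.08, and -0.08 and -0.16. Another divergent pair, rpl-39 with rps-30 (498 nt apart on V), had log2 fold changes of -0.27 and -0.14 and levels of 201 and 1767 FPKM. Another gene overlaps 27 of the 81 annotated genes, among them small nucleolar RNA genes, and for 15 there is a gene on the opposite strand. No source used here gives the strand setting of the counting, so reads of those 15 genes and of the gene opposite cannot be told apart.

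The other genes of translation were described from 7 lists with 96 tested genes. Without the block, edgeR called 0 of the 96, with 1 unadjusted p under 0.05, and the median log2 fold change was 0.02, with 45 genes under 0. The 6 ribosome-associated proteins were close to the ribosomal proteins, with a median of -0.05 and all under 0. Among them, ubl-1 and ubq-2, which encode a ribosomal protein fused to a ubiquitin-like protein and to ubiquitin, had log2 fold changes of -0.10 ± 0.14 and -0.07 ± 0.12, and rack-1, a scaffold on the small subunit, had -0.04 ± 0.14 (SE). The 9 elongation factors had a median of -0.06. eef-1A.1, which brings transfer RNA to the ribosome, had 20187, 21762 and 16593 CPM with diquat, against 19798, 22790 and 18635 CPM in the control (log2 fold change -0.06 ± 0.16, SE). This abundant message had overlapping groups and, like the ribosomal proteins, its lowest level in diquat 3.

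Genes that build the ribosome or control translation had median log2 fold changes nearer to 0 or above it. The medians were -0.01 for 33 initiation factors, 0.08 for 27 genes of ribosome assembly and ribosomal RNA processing, -0.01 for 6 genes of RNA polymerase I, 0.13 for 11 genes of the TOR pathway, which senses nutrients, and 0.03 for 4 genes of stress control of translation. All 11 TOR pathway genes were above 0 in the fit without the block, and none was called in it. With the block, 2 of the 11 were called higher, beside 4.51% of all tested genes. These lists hold longer transcripts than the ribosomal proteins, with median lengths of 1466 nt for initiation factors, 1811 nt for assembly and 1814 nt for the TOR pathway, and whether the lists differ from the ribosomal proteins was not tested. fib-1, the nucleolar methyltransferase fibrillarin, had a log2 fold change of -0.14 ± 0.14, and rsks-1, the S6 kinase that acts below TOR, had 0.12 ± 0.11 (SE). let-363, the TOR kinase, had 52.4, 49.1 and 66.6 CPM with diquat, against 39.5, 43.4 and 57.7 CPM in the control. It was higher with diquat in all 3 pairs, with a log2 fold change of 0.26 ± 0.16 (SE; edgeR adjusted p = 0.819 without the block and 0.0321 with it).

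With the replicate block, 13 of the 96 genes were called higher, beside 4.51% of all tested genes, and 0 were called lower. They were eif-2Bgamma, eif-2Bdelta and eif-2Bepsilon, subunits of the exchange factor that recharges eIF2, and eif-3.C, a subunit of eIF3, with rbd-1, rrp-8, riok-3, pro-2, nol-10 and nst-1 from the assembly list, rpoa-2 of RNA polymerase I, and daf-15 and let-363 of the TOR pathway. eif-2Bgamma had 16.7, 14.9 and 23.9 CPM with diquat, against 12.1, 10.8 and 16.4 CPM in the control, higher with diquat in all 3 pairs (log2 fold change 0.50 with the block, edgeR adjusted p = 0.00292; 0.50 ± 0.20, SE, and 0.682 without it). In the blocked fit without the length trend, 11 were called higher, beside 4.81% of all tested genes, with nol-10 and let-363 past the threshold no longer. In that fit 3 of the 96 were called lower, beside 5.47% of all tested genes, so the list's share lower was no larger than that of all genes. The 3 were eef-2 (log2 fold change -0.14), ncl-1 (-0.17), which restrains nucleolar size, and rpoa-1 (-0.27), the largest subunit of RNA polymerase I. The list genes called with the block were named after their values were seen.

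**Figure D4:**
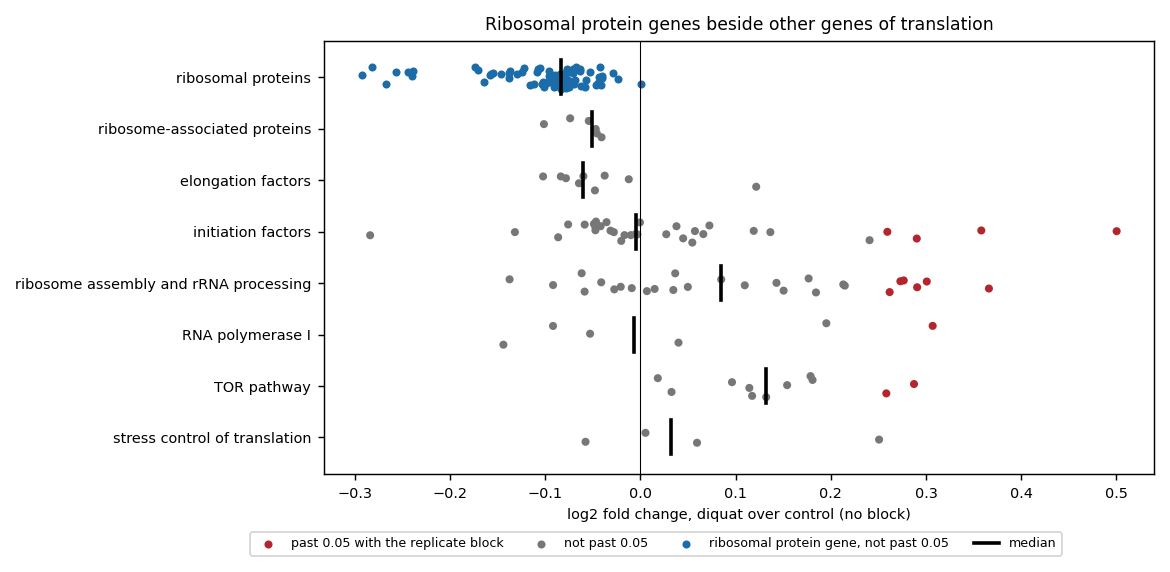
Log2 fold change, diquat over control, without the block, of the 80 tested annotated ribosomal protein genes (blue) and of the genes of 7 other lists of translation (grey; red where called with the replicate block), with a black bar at each median. The ribosomal protein median is -0.08 and no point is called there; the 13 called genes lie in the lists of initiation factors, ribosome assembly, RNA polymerase I and the TOR pathway.

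The mitochondrial ribosomal protein genes, whose products form the separate ribosome of that organelle, had log2 fold changes with a median of 0.01 over 71 tested genes with a median length of 763 nt. None was called by edgeR without the block, beside 0.913% of all tested genes, or with the block, beside 8.51%.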

How the data were processed

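Poly(A)-selected RNA of whole worms was sequenced in 3 diquat and 3 control libraries. Per the submitters' processing notes, fastp 0.18.0, HISAT2, StringTie 1.3.1 and RSEM were used with the genome build WBcel235; their roles and the strand setting are not given in the sources used here. Per the file headers, the authors deposited 1 table with a count and an FPKM per gene and library. The counts are whole, but 94 are 0 beside an FPKM above 0 and RSEM is named, so they were taken as estimated counts that the authors rounded. The deposited FPKM is per kilobase of transcript and scaled to the library total. The log2 fold change and the p-value with its FDR are also the authors' own, per the file headers, and the test behind them is not given.

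Tests used edgeR 4.0.16 in R 4.3.3 (quasi-likelihood, robust, TMM, default expression filter, group as the only term) on all genes, with Benjamini-Hochberg adjustment over the 13252 tested and a threshold of 0.05. Alternatives included DESeq2 1.42.0 and limma-voom 3.58.1. Standard errors and 95% intervals are approximate, from the F statistic. A floor of 3 counts is 0.122 to 0.128 CPM. Positions and exon lengths came from the WBcel235 annotation (Ensembl release 115), matched by identifier for 20105 genes; for 231 tested genes the length implied by the FPKM was used. The length trend was a lowess fit per library with a span of 0.5. The fit was tested on simulated data.

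The labels number the libraries 1 to 3 in both groups. Over genes, the deviations from the group mean of the libraries with number 1, 2 and 3 correlated at 0.155, 0.200 and 0.459 between the groups, all above 0.1, and the numbers were treated as pairs. Deviations within a group sum to 0, so these values are not independent of each other, and diquat 2 correlated with control 1 at 0.208.

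The members, the lists of other translation genes and markers, and the tests were chosen with earlier results of these data known. Named members were the stalk genes, the 6 highest by FPKM, the 5 highest and 5 lowest fold changes with a mean of at least 50 counts, genes sharing a number, those under the filter and the 6 smallest blocked p, and from the lists 8 genes whatever their result. Protein and promoter sequences were not used here.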

Additional observations from a re-analysis of the deposited data

How the results depend on the processing

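The count of 0 called ribosomal protein genes held in both directions under DESeq2, limma-voom, other scalings and filters, the replicate block and the removal of the length trend. Leaving out libraries gave 0 to 7 lower, the 7 without number 2 of both groups in the blocked fit. With the replicate block, which pairs libraries by number, the genes of the other translation lists had 13 called higher in place of 0, and with the length trend also removed 11 higher and 3 lower. The block changed the call of no ribosomal protein gene. The median log2 fold change of the members was -0.16 without diquat 2 and -0.03 without diquat 3, which bound the values with 1 library left out, and 0.04 with the length trend removed. Of 41 named genes with a test, 27 had the other sign with the trend removed and 26 with the trend removed and the block; none was called by edgeR without the block. Scaling by the total count alone moved it to -0.05 and the median of all genes to 0.05. The log2 ratio of the summed share was -0.07 to 0.00 with 1 library left out. Depth limits rpl-42 and the assembled locus named rpl-2, which have at most 21 counts in a library. Intervals and floors cover counting error and the spread between these libraries only. The cause of these changes was not tested.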
